A study of Homo sapiens with 28 samples.

Results

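The interaction described here is the p53 dependence of the etoposide effect in a pooled, genome-wide CRISPR knockout screen. For each gene it is the log2 change in guide abundance with etoposide in p53 knockout cells (p53 KO) minus the same change in p53 wild-type cells (p53 WT). The cells were U-2 OS, a human osteosarcoma line, and guides were counted in their genomic DNA. The 4 groups were p53 KO cells given 5 µM etoposide for 96 h, p53 KO cells left untreated for 96 h, p53 WT cells given 5 µM etoposide for 96 h and p53 WT cells left untreated for 96 h. Per the labels' treatment protocols the untreated cells received DMSO, the solvent. Each group had 3 libraries, lettered A, B and C, which makes 12 of the 28 samples of the series. All 12 carried the same kind of guide library on top of their p53 genotype, and 6 further screen libraries were taken at the start (T0). The labels do not say whether the p53 KO line is a single clone or how p53 was disrupted. Guide counts hold no transcript levels, so neither the cell line nor the p53 genotype could be checked against marker genes. Of 19050 gene names, 19044 had 3 or more guides and were tested.

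p53 is a transcription factor that DNA damage stabilises. It switches on CDKN1A (p21), which halts the cell cycle, and genes that promote apoptosis, and its level is kept down by the ubiquitin ligase MDM2 and its partner MDM4. Etoposide traps topoisomerase II on cut DNA and so leaves double-strand breaks. In a pooled screen each cell carries a guide that disrupts a gene, and the guide's share of all reads follows how many such cells there are. A guide that is higher with etoposide than without it marks cells that were relatively more numerous with the drug, and guide counts cannot tell slower division from more death. A positive interaction means that the guides were relatively higher with etoposide in p53 KO than in p53 WT cells, and a negative one that they were lower.

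Library totals ran from 30437296 to 44970886 counts, and the median guide had 246 to 363 counts. The labels do not tell whether a group's 3 libraries are independent cultures, and p-values therefore cover the spread between these libraries only. Levels are given as CPM, which scales each library's counts to the same total, summed over the guides of a gene. Changes are on the log2 scale with their standard error (SE). A gene is called where edgeR's quasi-likelihood test gave a Benjamini-Hochberg adjusted p under 0.05 over all 19044 genes.

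The interaction was called for 10 genes, 0.0525% of those tested, with 5 higher and 5 lower in p53 KO (0.0263% in each direction). Higher in p53 KO were GPX4, which detoxifies lipid peroxides, CAST (calpastatin, the inhibitor of calpains), GFRA1 (a GDNF co-receptor), ABT1 (a nucleolar protein of ribosome assembly) and SLC25A52 (a mitochondrial carrier). Lower in p53 KO were RAD9A and HUS1, both subunits of the 9-1-1 checkpoint clamp, HSPA4 (an HSP110-type chaperone), SMDT1 (EMRE, a subunit of the mitochondrial calcium uniporter) and KLF5 (a zinc-finger transcription factor). Called differences were between 0.33 and 0.58 in size, and the median SE over all genes was 0.08. Without the call threshold, 1944 genes had an unadjusted p under 0.05. These were 974 higher (5.11%) and 970 lower (5.09%). Of 56 genes that differed by more than 0.3 in size, 46 were not called.

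The number of calls depended on the libraries and the scaling. It was 5 without WT etoposide A, 5 without WT etoposide C and 17 without KO untreated A. Scaled to the 999 non-targeting guides, 19 genes were called, 4 higher and 15 lower, and 9 of the 10 were among them. GPX4, RAD9A and HUS1 were called under every alternative that kept the 96 h untreated cells as the baseline and that could be run for them. These were 21 for GPX4 and HUS1 and 20 for RAD9A. RAD9A was not tested in the alternative without guides under a mean of 200 counts.

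**Figure D1:**
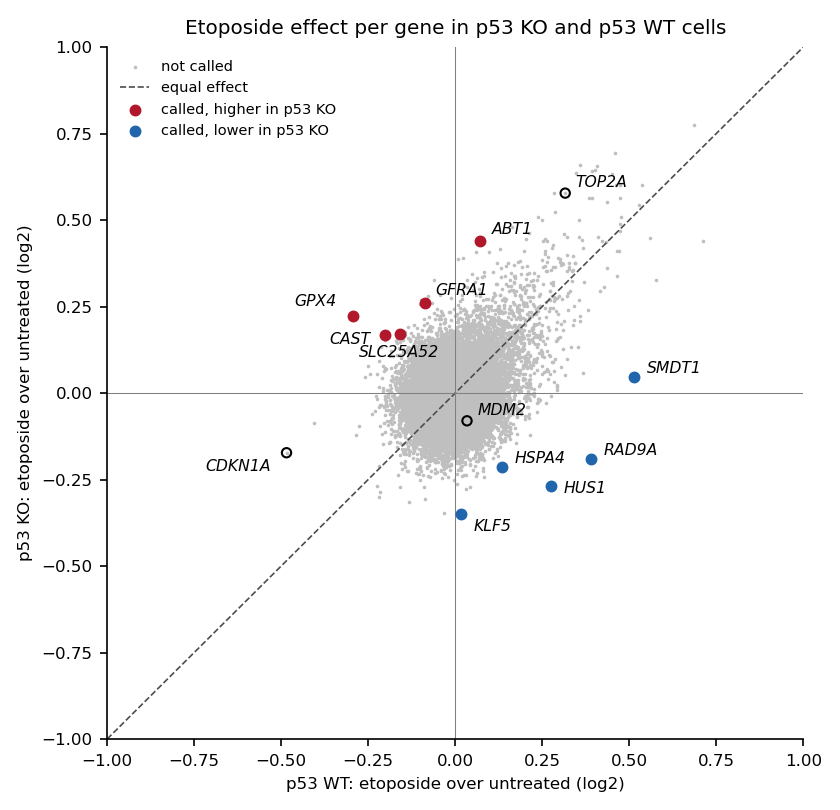
Etoposide effect of each gene in p53 KO cells (vertical axis, log2 of etoposide over untreated) against that in p53 WT cells (horizontal axis, same scale), with 1 point per gene and the dashed line marking equal effects. The 5 genes called higher in p53 KO lie above the line and the 5 called lower lie below it, and 2 genes outside the axes are not drawn.

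The effects within each genotype frame these differences. In p53 KO cells 550 genes rose with etoposide (2.89%) and 267 fell (1.4%). In p53 WT cells 317 rose (1.66%) and 69 fell (0.362%). With scaling to the non-targeting guides the split was 835 higher and 107 lower in p53 KO, and 974 higher and 17 lower in p53 WT. The p53 KO count was 513 without KO etoposide A and 520 without KO etoposide B, and the p53 WT count was 248 without WT etoposide B and 240 without WT etoposide C. Both genotypes called 184 genes, which is 22.5% of the p53 KO calls and 47.7% of the p53 WT calls. Of these, 181 moved the same way and 3 moved oppositely, namely GPX4, CAST and HUS1. Another 835 genes were called in 1 genotype only, and for 7 of them the difference itself was called. Across the 19044 genes the 2 effects had a Pearson correlation of 0.309, as a description, since genes are not independent replicates.

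The genes lowest in the interaction belong to the checkpoint that senses single-stranded DNA. The 9-1-1 clamp, made of RAD9A, RAD1 and HUS1, is loaded by RAD17 at damaged or stalled DNA, where with TOPBP1 and RHNO1 it activates the kinase ATR. ATR in turn activates CHK1 (CHEK1), which holds back cell division.

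RAD9A guides summed to 25.0, 26.1 and 26.5 CPM in KO etoposide libraries A, B and C, against 27.8, 31.1 and 29.6 CPM in KO untreated. They summed to 31.2, 29.6 and 30.0 CPM in WT etoposide, against 23.0, 21.8 and 24.4 CPM in WT untreated. The libraries of a genotype did not overlap, and the direction was opposite in the genotypes. In p53 KO cells the RAD9A change was −0.19 ± 0.07 (adjusted p = 0.122), and in p53 WT cells RAD9A rose by 0.39 ± 0.07 (adjusted p = 8.52e-05). The difference was −0.58 ± 0.10 (adjusted p = 0.000825), and all 5 guides were lower in p53 KO, between −1.36 and −0.07. At T0 the RAD9A guides stood at 31.6 to 40.4 CPM in p53 KO and 32.0 to 33.5 CPM in p53 WT, so the WT untreated libraries were the lowest of all.

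HUS1 differed in the same direction, with KO etoposide and WT untreated as its low groups. Its guides summed to 24.5, 24.1 and 27.1 CPM in KO etoposide, against 32.3, 31.6 and 27.4 CPM in KO untreated. They summed to 31.0, 32.4 and 29.8 CPM in WT etoposide, against 26.4, 24.6 and 25.9 CPM in WT untreated. HUS1 fell in p53 KO cells (−0.27 ± 0.07, adjusted p = 0.0112) and rose in p53 WT cells (0.28 ± 0.07, adjusted p = 0.0111), with no overlap between the libraries of either genotype. The difference was −0.55 ± 0.10 (adjusted p = 0.00159), with 5 of 6 guides lower in p53 KO. Against T0 in place of the untreated cells, the differences were −0.36 for RAD9A (adjusted p = 0.305) and −0.44 for HUS1 (adjusted p = 0.0746), so neither was called on that baseline.

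ATR itself fell just outside the threshold. It summed to 38.6, 37.5 and 41.1 CPM in KO etoposide, against 43.3, 44.7 and 48.1 CPM in KO untreated, and to 45.3, 44.4 and 45.4 CPM in WT etoposide, against 38.3, 40.6 and 45.0 CPM in WT untreated. ATR fell in p53 KO cells (−0.22 ± 0.06, adjusted p = 0.0133), and its value in p53 WT cells was 0.13 ± 0.06 (adjusted p = 0.297). The difference was −0.34 ± 0.08 (adjusted p = 0.0576, 5 of 6 guides lower). Among the alternatives without a replicate block, it was called with scaling to the non-targeting guides (adjusted p = 0.0271) and with DESeq2 (0.0103). It was also called without WT untreated C (0.0147), KO untreated A (0.0281) or KO etoposide C (0.0468). Over all alternatives with the untreated baseline, ATR was called in 6 of 21. Adjusted p was 0.167 without WT untreated A and 0.263 without guides under a mean of 200 counts. Against T0 the ATR difference was −0.22 (adjusted p = 0.591).

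All 19 listed genes of the ATR, 9-1-1 and CHK1 group were measured, with a median difference of −0.10, against 0.00 over all genes. Their median change with etoposide was −0.05 in p53 KO and 0.09 in p53 WT cells. The interaction was called lower for 2 of 19 and higher for 0, by edgeR's quasi-likelihood test, against 0.0263% of all genes in each direction. At an unadjusted p under 0.05, 8 were lower and 0 higher, against 5.09% and 5.11% of all genes. DESeq2 called 4 lower and 0 higher, against 57 lower and 42 higher of all 19044 genes. Besides RAD9A, HUS1 and ATR, the 8 were RAD1, the RPA1 and RPA2 subunits of the single-strand binding protein RPA, the ATR activator ETAA1 and RHNO1, which are named here because of their values. RAD1, the remaining clamp subunit, summed to 63.2, 64.8 and 61.4 CPM in KO etoposide, against 69.3, 68.2 and 68.5 CPM in KO untreated. In p53 WT it stood at 77.9, 74.0 and 77.2 CPM with etoposide, against 74.3, 69.9 and 69.0 CPM untreated. Its difference was −0.22 ± 0.06 (adjusted p = 0.163). RPA1 had −0.29 ± 0.10 (adjusted p = 0.247). CHEK1 had −0.13 ± 0.08 (adjusted p = 0.631), the clamp loader RAD17 −0.06 (adjusted p = 0.862), ATRIP, the partner of ATR, −0.01 (adjusted p = 0.988), and TOPBP1 0.11 (adjusted p = 0.69). The kinase WEE1, which acts beside CHK1, had −0.02 (adjusted p = 0.958).

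**Figure D2:**
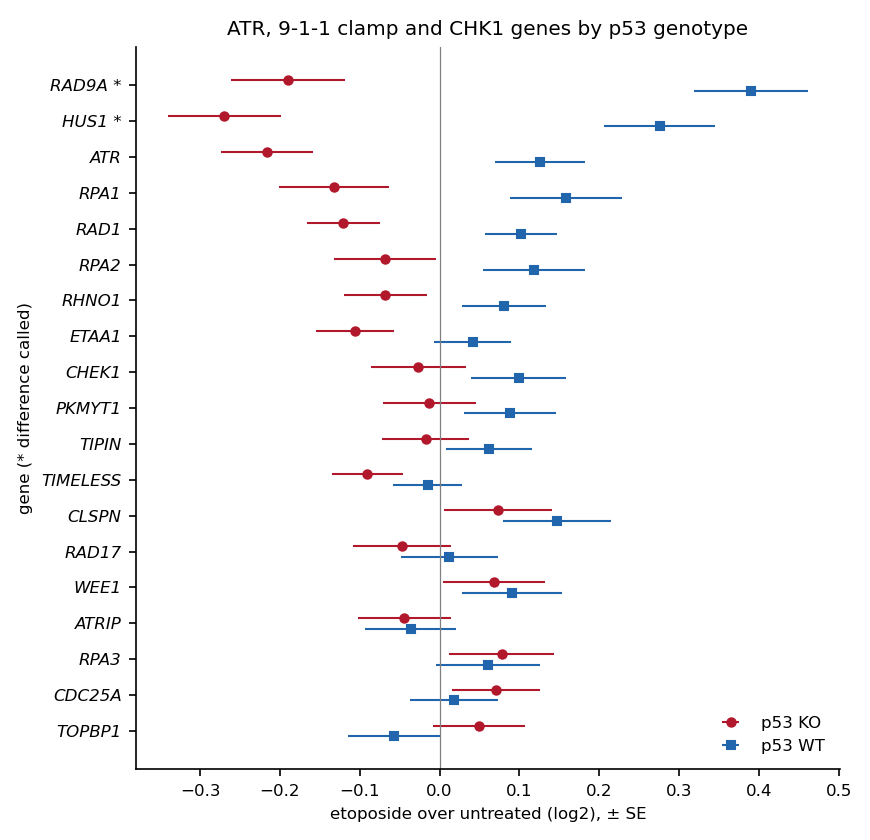
Etoposide effect (log2 of etoposide over untreated, ± SE, horizontal axis) of the 19 measured genes of the ATR, 9-1-1 clamp and CHK1 list, with p53 KO as red circles above p53 WT as blue squares in each row. RAD9A and HUS1, marked with an asterisk, are the 2 genes whose difference was called, and towards the foot of the plot the genotypes overlap.

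GPX4 had the smallest p of all genes. It encodes the selenoenzyme that reduces lipid hydroperoxides and so protects cells from ferroptosis, a death driven by iron and lipid peroxidation. Its guides summed to 43.3, 41.8 and 45.3 CPM in KO etoposide, against 38.8, 34.4 and 38.6 CPM in KO untreated. In p53 WT they summed to 33.5, 33.3 and 32.8 CPM with etoposide, against 42.3, 37.1 and 42.6 CPM untreated. The WT etoposide libraries were thus the lowest of the 4 groups and the KO etoposide libraries at or near the top. GPX4 guides rose in p53 KO cells (0.22 ± 0.06, adjusted p = 0.0142) and fell in p53 WT cells (−0.30 ± 0.06, adjusted p = 0.000552). The difference was 0.52 ± 0.08 (adjusted p = 0.000299). Each of the 5 guides was higher in p53 KO, from 0.27 to 1.11.

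At T0, GPX4 guides stood at 50.5 to 56.7 CPM in p53 KO and 51.0 to 55.0 CPM in p53 WT, above all 12 libraries taken at 96 h. With T0 as the baseline the difference was 0.37 (adjusted p = 0.0811). The other 14 listed ferroptosis genes were not called for the interaction. The list of 15 had a median of 0.04. GPX4 was the 1 gene called by edgeR and the 1 called by DESeq2, against 10 and 99 of all 19044 genes. At an unadjusted p under 0.05, 2 of 15 were higher and 0 lower, against 5.11% and 5.09% of all genes. AIFM2 (FSP1), which protects from ferroptosis in parallel to GPX4, had a difference of 0.27 ± 0.09 with 5 of 5 guides higher (adjusted p = 0.26). Neither of its genotype effects was called, at 0.13 (adjusted p = 0.304) in p53 KO and −0.14 (adjusted p = 0.316) in p53 WT. SLC7A11, the cystine importer, and ACSL4, which makes peroxidisable lipids, had 0.03 (adjusted p = 0.921) and 0.07 (adjusted p = 0.751). KEAP1, which restrains the antioxidant factor NFE2L2, fell in p53 KO cells (−0.22, adjusted p = 0.00114). Its value in p53 WT was −0.11 (adjusted p = 0.279) and its difference −0.11 (adjusted p = 0.589).

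SMDT1 moved in p53 WT cells. EMRE, its product, is a small subunit that the pore of the mitochondrial calcium uniporter (MCU) needs in order to work. SMDT1 guides summed to 31.0, 30.8 and 29.5 CPM in KO etoposide, against 26.6, 32.1 and 29.7 CPM in KO untreated, which overlap. They summed to 30.8, 31.5 and 30.0 CPM in WT etoposide, against 20.8, 23.0 and 21.0 CPM in WT untreated, and 32.7 to 33.5 CPM at T0 in p53 WT. The WT untreated libraries were therefore the low ones, and no other library at 96 h was below 26.6 CPM. Its value in p53 KO cells was 0.05 ± 0.07 (adjusted p = 0.799), and SMDT1 rose in p53 WT cells (0.51 ± 0.07, adjusted p = 2.89e-08). The difference was −0.47 ± 0.10 (adjusted p = 0.0141), with 3 of 4 guides lower.

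The SMDT1 call ended without WT etoposide A (adjusted p = 0.0574), WT etoposide B (0.0591), KO untreated B (0.108) or KO etoposide C (0.0514), or with only the 12 libraries compared (0.0633). With T0 as the baseline its difference was −0.01 (adjusted p = 0.992). SMDT1 was the 1 gene called of the 16 measured genes of the mitochondrial permeability transition and calcium uptake, against 0.0525% of all genes. The list's median was 0.03, with 1 higher and 1 lower at an unadjusted p under 0.05, against 5.11% and 5.09% of all genes. MCU itself rose in p53 KO (0.18, adjusted p = 0.0313) and had 0.13 (adjusted p = 0.23) in p53 WT, with a difference of 0.05 (adjusted p = 0.871). PPIF, which encodes the pore regulator cyclophilin D, had 0.14 (adjusted p = 0.55). HK2, a hexokinase on the outer mitochondrial membrane, rose in p53 KO (0.18, adjusted p = 0.0153), with −0.01 (adjusted p = 0.945) in p53 WT and a difference of 0.19 ± 0.07 (adjusted p = 0.268).

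CAST guides moved in opposite directions in the genotypes. They summed to 50.8, 51.6 and 53.9 CPM in KO etoposide, against 46.9, 46.9 and 45.5 CPM in KO untreated. They summed to 42.6, 42.9 and 42.2 CPM in WT etoposide, against 48.3, 50.2 and 48.3 CPM in WT untreated. Neither genotype's libraries overlapped. CAST rose in p53 KO (0.17 ± 0.05, adjusted p = 0.0492) and fell in p53 WT (−0.20 ± 0.05, adjusted p = 0.0179), and the difference was 0.37 ± 0.07 (adjusted p = 0.0119). All 6 guides were higher in p53 KO, and they lay close together, from 0.27 to 0.56. The call ended without WT etoposide C (adjusted p = 0.0599), without KO etoposide C (0.0514), with the guides' mean log2 CPM in limma (0.0839) or without guides under a mean of 200 counts (0.055). Against T0 the CAST difference was 0.23 (adjusted p = 0.541).

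GFRA1 and ABT1 rose in p53 KO cells, while neither was called in p53 WT. GFRA1 summed to 56.4, 56.0 and 54.8 CPM in KO etoposide, against 46.0, 47.0 and 46.6 CPM in KO untreated. In p53 WT it summed to 59.9, 54.5 and 54.6 CPM with etoposide, against 60.8, 56.7 and 61.8 CPM untreated. Its KO untreated libraries stood below the 53.7 to 55.0 CPM of p53 KO at T0, and with T0 as the baseline the difference was 0.05 (adjusted p = 0.941). GFRA1 changed by 0.26 ± 0.05 in p53 KO (adjusted p = 0.000193) and −0.09 ± 0.05 in p53 WT (adjusted p = 0.449), a difference of 0.35 ± 0.07 with 6 of 6 guides higher (adjusted p = 0.0119). Its call ended without WT etoposide B (adjusted p = 0.0624), WT etoposide C (0.0961) or KO etoposide A (0.0528), with the limma fit (0.0566), with only the 12 libraries compared (0.0517) or without the low-count guides (0.055).

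ABT1 summed to 54.2, 54.4 and 51.3 CPM in KO etoposide, against 40.0, 37.0 and 40.9 CPM in KO untreated. In p53 WT it summed to 41.2, 46.7 and 44.3 CPM with etoposide, against 41.8, 42.6 and 41.7 CPM untreated, which overlap. It rose by 0.44 ± 0.06 in p53 KO (adjusted p = 3.16e-09), with 0.07 ± 0.06 in p53 WT (adjusted p = 0.639) and a difference of 0.37 ± 0.08 (adjusted p = 0.025, 6 of 6 guides higher). Its call ended without WT untreated B (adjusted p = 0.0657), WT etoposide A (0.135), WT etoposide C (0.0954), KO untreated B (0.108), KO etoposide A (0.0708) or KO etoposide B (0.0722), with the limma fit (0.115) or with only the 12 libraries compared (0.0743). Against T0 the ABT1 difference was 0.15 (adjusted p = 0.79).

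SLC25A52 has a near-identical relative, SLC25A51, and whether its guides also cut that gene was not checked. Its guides summed to 60.2, 61.5 and 57.0 CPM in KO etoposide, against 50.9, 53.4 and 54.6 CPM in KO untreated, and to 47.0, 51.1 and 49.0 CPM in WT etoposide, against 52.3, 56.2 and 55.9 CPM in WT untreated. It rose in p53 KO (0.17 ± 0.05, adjusted p = 0.0367) and had −0.16 ± 0.05 in p53 WT (adjusted p = 0.0969). The difference was 0.33 ± 0.07 (adjusted p = 0.038, 6 of 6 guides higher). It was among the least stable of the called genes, with a call in 8 of 21 alternatives that kept the untreated baseline. The call was absent without WT untreated B (adjusted p = 0.0926), WT untreated C (0.069), WT etoposide A (0.135), WT etoposide C (0.121), KO untreated A (0.0744), KO untreated B (0.0862), KO etoposide A (0.0729) or KO etoposide B (0.109). It was also absent with scaling to the non-targeting guides (adjusted p = 0.0607), the limma fit (0.141), only the 12 libraries compared (0.106), the low-count guides left out (0.0679) and library quality weights (0.0633). Against T0 the SLC25A52 difference was 0.25 (adjusted p = 0.37).

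HSPA4 and KLF5 fell in p53 KO cells. HSPA4 summed to 53.1, 58.4 and 59.3 CPM in KO etoposide, against 68.2, 64.3 and 65.6 CPM in KO untreated. In p53 WT it summed to 64.4, 60.3 and 60.2 CPM with etoposide, against 53.1, 60.2 and 55.1 CPM untreated. HSPA4 changed by −0.21 ± 0.05 in p53 KO (adjusted p = 0.00285) and by 0.14 ± 0.05 in p53 WT (adjusted p = 0.169), a difference of −0.35 ± 0.07 (adjusted p = 0.0119, 5 of 6 guides lower). Its call ended without WT untreated A (adjusted p = 0.052), WT etoposide A (0.0778) or KO etoposide A (0.0729), or with the limma fit (0.136). Against T0 the HSPA4 difference was −0.19 (adjusted p = 0.63).

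KLF5 summed to 39.4, 34.5 and 38.5 CPM in KO etoposide, against 48.3, 45.2 and 49.9 CPM in KO untreated, and to 41.1, 42.4 and 43.9 CPM in WT etoposide, against 44.3, 42.7 and 38.9 CPM in WT untreated. The p53 KO groups were apart and the p53 WT groups overlapped. It fell by 0.35 in p53 KO (adjusted p = 6.73e-06), with 0.02 ± 0.06 in p53 WT (adjusted p = 0.941) and a difference of −0.37 ± 0.08 (adjusted p = 0.0407, 4 of 5 guides lower). KLF5 was called in 8 of 21 alternatives that kept the untreated baseline, and against T0 its difference was −0.13 (adjusted p = 0.83). Its call ended without WT untreated B (adjusted p = 0.06), WT untreated C (0.109), WT etoposide A (0.0574), WT etoposide B (0.0726), WT etoposide C (0.136), KO untreated A (0.0556), KO untreated C (0.0997), KO etoposide B (0.138) or KO etoposide C (0.0503), with the limma fit (0.141), only the 12 libraries compared (0.128), the low-count guides left out (0.055) or library quality weights (0.0864).

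**Figure D3:**
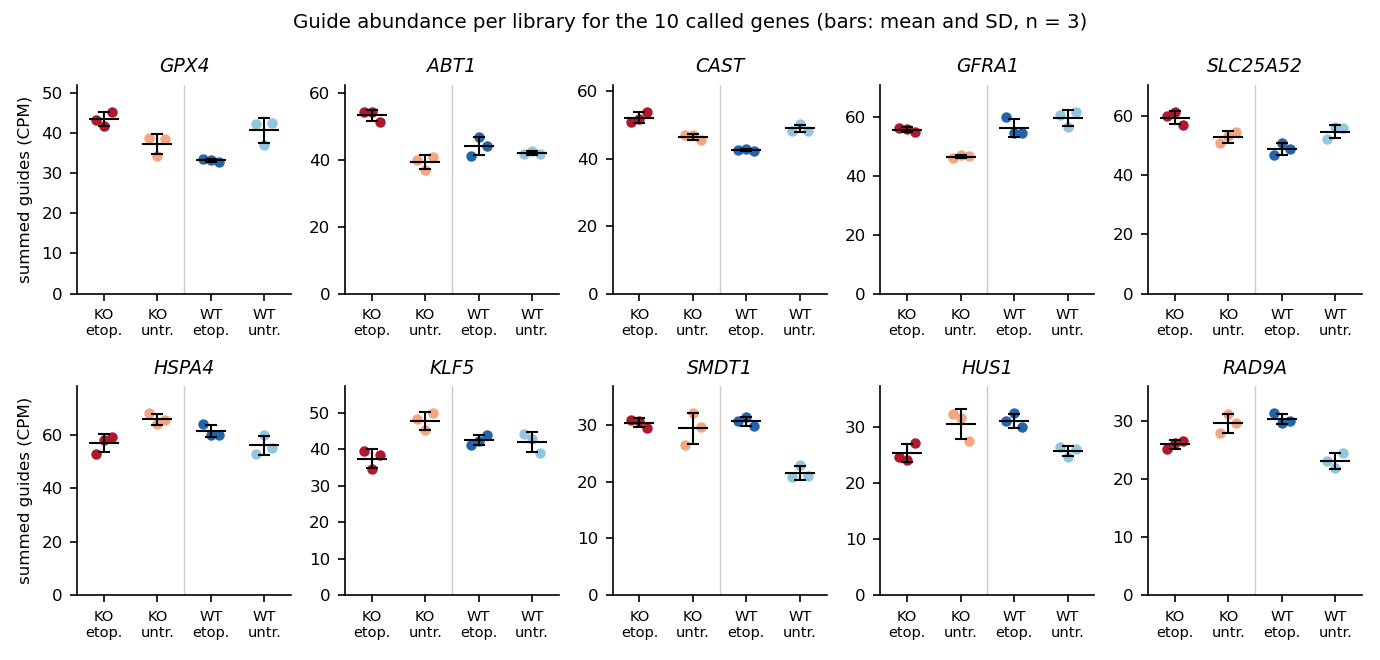
Summed guide abundance (CPM, vertical axis from 0) in each of the 12 libraries for the 10 called genes, with 1 point per library, and the mean and SD of each group of 3 as bars. GPX4 is lowest in WT etoposide, RAD9A and SMDT1 are lowest in WT untreated, and KLF5 is lowest in KO etoposide.

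Just outside the threshold stood further genes with at least 2 of every 3 guides on the same side. On the higher side were DEFB103B (0.35 ± 0.08, adjusted p = 0.0501), a beta-defensin with a near-identical copy, and NDUFB6 (0.30 ± 0.07, adjusted p = 0.0501), a subunit of respiratory complex I. They were followed by SVOP (0.32, adjusted p = 0.0576), FAM13C (0.26, adjusted p = 0.0682) and LHFP (0.32, adjusted p = 0.0714). On the lower side were KRTAP13-3 (−0.28, adjusted p = 0.0576), a hair keratin-associated protein, KLF10 (−0.34, adjusted p = 0.0576), a TGF-beta-inducible zinc-finger factor, and the leukocyte adhesion molecule ICAM3 (−0.30, adjusted p = 0.0632). MTG1, a GTPase of mitochondrial ribosome assembly, had −0.26 ± 0.06 (adjusted p = 0.0664), and its 6 guides were the most alike of the lower genes, from −0.31 to −0.21. MTG1 had −0.03 (adjusted p = 0.825) in p53 KO and rose in p53 WT (0.24, adjusted p = 0.000158).

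**Figure D4:**
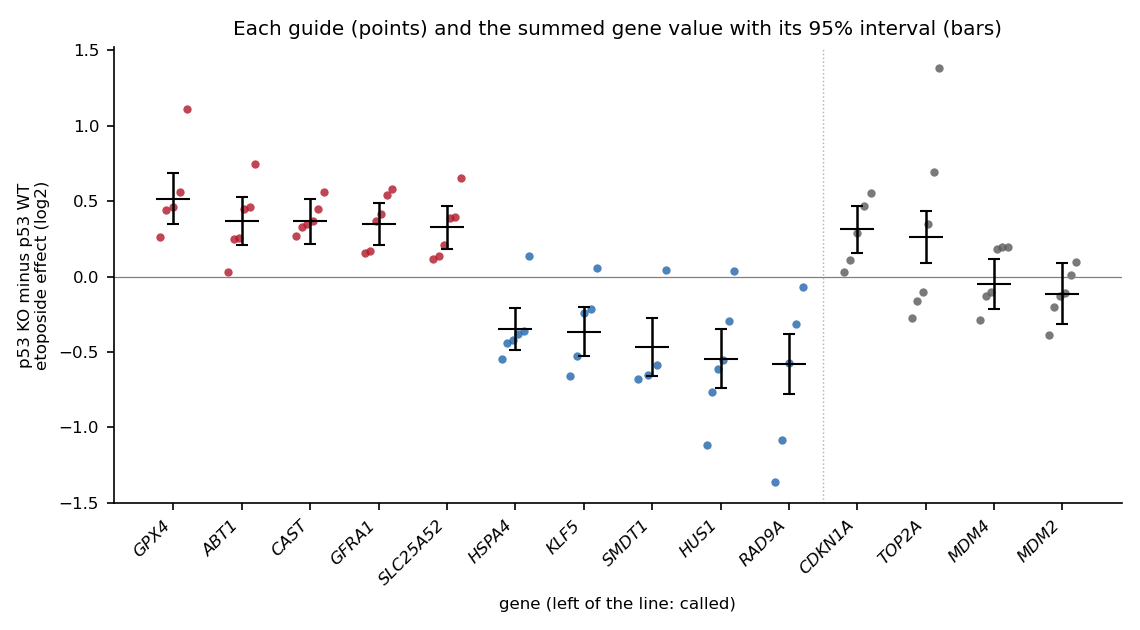
Interaction (p53 KO minus p53 WT etoposide effect, log2, vertical axis) of each guide as a point, and of the summed gene with its 95% interval as bars, for the 10 called genes and for CDKN1A, TOP2A, MDM4 and MDM2. All guides of GPX4, ABT1, CAST, GFRA1, SLC25A52 and RAD9A lie on 1 side of 0, while those of TOP2A run from −0.28 to 1.38.

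Among genes of the p53 pathway, CDKN1A is the classic target through which p53 halts the cell cycle. CDKN1A guides summed to 40.4, 42.2 and 39.4 CPM in KO etoposide, against 47.6, 42.7 and 47.2 CPM in KO untreated. They summed to 33.5, 33.1 and 33.8 CPM in WT etoposide, against 47.9, 46.4 and 46.1 CPM in WT untreated. Guides were lower with etoposide in both genotypes without overlap. CDKN1A had −0.17 ± 0.06 in p53 KO (adjusted p = 0.0612) and fell in p53 WT (−0.48 ± 0.06, adjusted p = 2.14e-10). The difference was 0.31 ± 0.08 (adjusted p = 0.0948), with 5 of 5 guides higher. It was called by DESeq2 (adjusted p = 0.0119). With T0 as the baseline it was 0.51 ± 0.08 (adjusted p = 7.29e-05), and CDKN1A was then the 1 gene called of 19044. At T0 its guides stood at 43.1 to 45.1 CPM in p53 KO and 49.7 to 53.5 CPM in p53 WT.

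MDM2 and MDM4, the negative regulators of p53, did not differ by a called amount. MDM2 guides summed to 29.7, 31.8 and 29.7 CPM in KO etoposide, against 33.6, 32.5 and 30.3 CPM in KO untreated, and to 26.1, 23.6 and 21.6 CPM in WT etoposide, against 21.2, 23.1 and 25.2 CPM in WT untreated. Its difference was −0.11 ± 0.10 (95% interval −0.32 to 0.09, adjusted p = 0.742). MDM2 guides were lower in p53 WT than in p53 KO in every library at 96 h. MDM4 stood between 40.7 and 47.9 CPM in the p53 KO libraries and between 37.8 and 43.5 CPM in the p53 WT libraries, with a difference of −0.05 ± 0.08 (95% interval −0.22 to 0.12, adjusted p = 0.885). PPM1D, the phosphatase WIP1 that switches p53 signalling off, had −0.29 ± 0.08 with 6 of 6 guides lower (adjusted p = 0.158). It had −0.06 in p53 KO (adjusted p = 0.676) and rose in p53 WT (0.23, adjusted p = 0.0119), and DESeq2 called its difference.

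The 22 p53 regulators had a median difference of 0.02. Of these, 0 were called by edgeR and 1 by DESeq2, against 10 and 99 of all 19044 genes. At an unadjusted p under 0.05, 2 were higher and 1 lower, against 5.11% and 5.09% of all genes. The 27 p53 target genes, CDKN1A included, had a median of 0.01, with 0 called by edgeR and 2 by DESeq2 (CDKN1A and SESN1). At an unadjusted p under 0.05, 6 were higher and 1 lower. SESN1, a stress-induced inhibitor of mTORC1 signalling, had 0.22 ± 0.06 (adjusted p = 0.175). PMAIP1 (NOXA), a BH3-only inducer of apoptosis, had 0.22 ± 0.07 (adjusted p = 0.187). It rose in p53 KO (0.29, adjusted p = 3.79e-06) and had 0.07 (adjusted p = 0.561) in p53 WT.

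Etoposide's target TOP2A, the topoisomerase II of dividing cells, rose in both genotypes. Its guides summed to 71.1, 74.7 and 83.1 CPM in KO etoposide, against 49.3, 53.4 and 50.6 CPM in KO untreated. They summed to 55.9, 58.1 and 50.5 CPM in WT etoposide, against 41.6, 43.0 and 47.6 CPM in WT untreated. TOP2A changed by 0.58 ± 0.06 in p53 KO (adjusted p = 1.24e-12) and 0.32 ± 0.06 in p53 WT (adjusted p = 0.000338). The difference was 0.26 ± 0.09 (95% interval 0.09 to 0.43, adjusted p = 0.223). Only 3 of its 6 guides were higher in p53 KO, so the summed value rested on those 3. TOP2B, the isoform of resting cells, had 0.00 ± 0.08 (adjusted p = 0.997), and TDP2, which removes topoisomerase II from DNA ends, had −0.08 (adjusted p = 0.813). The 12 topoisomerase and TDP genes had a median of −0.06. Of these, 0 were called by edgeR or DESeq2. At an unadjusted p under 0.05, 1 was higher and 1 lower, against 5.11% and 5.09% of all genes. TOP1 fell in p53 KO (−0.19, adjusted p = 0.0198), with −0.03 (adjusted p = 0.864) in p53 WT and a difference of −0.16 ± 0.07 (adjusted p = 0.444). The 13 ABC transporters, several of which export drugs, had a median of 0.00, with 0 called by either tool and 1 lower (ABCC5, −0.27 ± 0.08, adjusted p = 0.177) at an unadjusted p under 0.05. ABCC6 had −0.14 ± 0.07 (adjusted p = 0.497).

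Other repair routes held no called difference by edgeR or DESeq2. Of 17 genes of non-homologous end joining, which religates broken ends, the median was −0.05. At an unadjusted p under 0.05, 3 were lower and 0 higher, against 5.09% and 5.11% of all genes. MAD2L2, the shieldin subunit REV7, had 0.02 (adjusted p = 0.891) in p53 KO and rose in p53 WT (0.24, adjusted p = 0.00241), with a difference of −0.22 ± 0.08 (adjusted p = 0.26, 6 of 6 guides lower). LIG4, the ligase of this route, fell in p53 KO (−0.27, adjusted p = 0.000123), with −0.09 (adjusted p = 0.453) in p53 WT and a difference of −0.18 (adjusted p = 0.338), and is named here because of its values.

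The 18 genes of the ATM branch and break sensing had a median of 0.00, with 1 higher and 4 lower at an unadjusted p under 0.05. At that threshold 5.11% of all genes were higher and 5.09% lower. MDC1, the scaffold that binds phosphorylated H2AX, had −0.22 ± 0.07 (adjusted p = 0.218), and FAM175A (Abraxas) had −0.20 ± 0.08 (adjusted p = 0.295). ATM and its target kinase CHEK2 had −0.09 (adjusted p = 0.759) and 0.08 (adjusted p = 0.733). Homologous recombination and Fanconi genes, 33 measured of 34, had a median of 0.00, with 3 higher and 1 lower at an unadjusted p under 0.05. RAD52, a recombination mediator, had 0.28 ± 0.09 (adjusted p = 0.211, 5 of 5 guides higher), and FANCE of the Fanconi core complex had 0.24 ± 0.10 (adjusted p = 0.373). Among 41 genes of DNA replication the median was −0.04, and 2 were higher and 7 lower at an unadjusted p under 0.05. RRM2, the small subunit of ribonucleotide reductase, had 0.27 ± 0.10 (adjusted p = 0.282), and ORC6 of the origin recognition complex had −0.23 ± 0.09 (adjusted p = 0.329).

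Genes of cell death and survival likewise held no called difference apart from GPX4 and SMDT1. Over all genes, 5.11% were higher and 5.09% lower at an unadjusted p under 0.05. The list of BH3-only genes, BAX and BAK1 (11 genes), which start apoptosis at the mitochondrion, had a median of 0.05, with 2 higher (PMAIP1 and BAX, 0.15 ± 0.07, adjusted p = 0.415) and 0 lower at an unadjusted p under 0.05. The 6 anti-apoptotic BCL2 genes had a median of 0.01, with 0 at an unadjusted p under 0.05. MCL1 had −0.13 ± 0.07 (adjusted p = 0.53) and BCL2 0.13 ± 0.08 (adjusted p = 0.584). Death receptor genes (11) had a median of −0.01, with 0 at an unadjusted p under 0.05, TNFSF10 (TRAIL) at −0.14 ± 0.08 (adjusted p = 0.535) and TNFRSF1A at 0.12 ± 0.07 (adjusted p = 0.579) among them. None of these 3 lists had a member called by DESeq2.

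The linear ubiquitin ligase and TNF receptor list (21) had a median of −0.04, with 0 called by either tool. At an unadjusted p under 0.05, 2 were higher and 1 lower, against 5.11% and 5.09% of all genes. RBCK1 (HOIL-1), a subunit of that ligase, fell in p53 KO (−0.24, adjusted p = 0.000632), with −0.09 (adjusted p = 0.403) in p53 WT and a difference of −0.14 ± 0.07 (adjusted p = 0.476). NFKB2 had 0.17 ± 0.07 (adjusted p = 0.352). Necroptosis and pyroptosis genes (12) had a median of 0.02, with 1 higher and 0 lower at an unadjusted p under 0.05 and 0 called by either tool. The 1 was PYCARD, the inflammasome adaptor ASC (0.27 ± 0.08, adjusted p = 0.201), while the sensor NLRP3 had 0.12 ± 0.08 (adjusted p = 0.617). In the PARP1, AIFM1 and parthanatos list (10) the median was 0.06, with 0 called by either tool and 1 lower at an unadjusted p under 0.05, the hydrolase ADPRHL2 (−0.15 ± 0.07, adjusted p = 0.471). HK1, a hexokinase, had 0.14 ± 0.08 (adjusted p = 0.523). AIFM1, a mitochondrial flavoprotein, rose by 0.40 in p53 KO (adjusted p = 4.33e-10) and 0.32 in p53 WT (adjusted p = 8.14e-07), a difference of 0.08 (adjusted p = 0.737).

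CASP6, which encodes a protease of apoptosis, stood apart through a single guide. The apoptosome and caspase list it belongs to (12 genes) had a median of 0.04, with 0 called by either tool for the interaction. At an unadjusted p under 0.05, 3 were higher and 0 lower, against 5.11% and 5.09% of all genes. With etoposide, 4 were called higher in p53 KO and 2 in p53 WT, against 2.89% and 1.66% of all genes. CASP6 guides summed to 224, 3771 and 255 CPM in KO etoposide A, B and C, against 89.9, 97.2 and 1302 CPM in KO untreated. They summed to 84.5, 108 and 194 CPM in WT etoposide, against 103, 255 and 288 CPM in WT untreated. Both pairs overlap, and the libraries within p53 KO differed many-fold. CASP6 was called higher with etoposide in p53 KO (1.51 ± 0.47, adjusted p = 0.0448) in spite of that overlap, and its value in p53 WT was −0.74 ± 0.47 (adjusted p = 0.515). The gene-level difference was 2.25 ± 0.66 (adjusted p = 0.175), with 3 of 5 guides higher, and it was −0.31 without KO etoposide B and 4.66 without KO untreated C (adjusted p = 4.29e-08).

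Most CASP6 counts came from guide HGLibA_07318, which held 189, 3738 and 219 CPM in KO etoposide, against 57.0, 65.1 and 1265 CPM in KO untreated. At T0 it held 98.6 to 538 CPM in p53 KO and 47.6 to 111 CPM in p53 WT. The other 4 CASP6 guides differed by −0.19 to 0.37. With the 5 guides of the screen that were over 5 times their own median in some library left out, an alternative added after seeing the data, the CASP6 difference was 0.02 and 12 genes were called in all.

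At the level of single guides, 3 of 109367 were called (0.00274%), against 9754 at an unadjusted p under 0.05. The 1 described here is HGLibB_21658 against HMGA2 (−1.43 ± 0.19, adjusted p = 6.49e-06), a chromatin architectural protein. HGLibB_21658 held 10.2, 7.58 and 6.88 CPM in KO etoposide, against 18.1, 16.4 and 20.3 CPM in KO untreated. In p53 WT it held 7.01, 6.15 and 6.65 CPM with etoposide, against 4.23, 5.93 and 6.16 CPM untreated, and in p53 KO at T0 it held 8.87 to 10.8 CPM. The KO untreated libraries were the high ones. Only 3 of 6 HMGA2 guides were lower, and the summed gene was not called (−0.25, adjusted p = 0.175), although HMGA2 fell in p53 KO (−0.21, adjusted p = 0.00673). The guide count was 1 without WT untreated C, WT etoposide A, WT etoposide B or KO etoposide B, and 5 without KO untreated A, B or C. The median SE of a single guide was 0.19, against 0.08 for a gene. The 999 non-targeting guides had a median interaction of 0.03, with −0.02 in p53 KO and −0.05 in p53 WT.

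Among the genes that rose most with etoposide, MRPL33, GAPDH, IARS2 and MYC rose in both genotypes, with no called difference. CASP6, described above, was called higher in p53 KO only. MRPL33, a protein of the mitochondrial ribosome, summed to 64.0, 65.0 and 65.1 CPM in KO etoposide, against 35.0, 39.3 and 39.0 CPM in KO untreated. It summed to 50.7, 53.8 and 52.3 CPM in WT etoposide, against 35.3, 30.3 and 31.7 CPM in WT untreated. Its rise was 0.77 ± 0.05 in p53 KO and 0.69 ± 0.06 in p53 WT, and the difference was 0.09 ± 0.08 (95% interval −0.07 to 0.24, adjusted p = 0.74). At T0 it stood at 51.7 to 55.9 CPM in p53 KO and 50.8 to 52.0 CPM in p53 WT, so the untreated cells were the low groups.

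GAPDH, the glycolytic dehydrogenase, rose in both, by 0.44 ± 0.06 in p53 KO and 0.71 ± 0.06 in p53 WT, a difference of −0.27 ± 0.08 (adjusted p = 0.196). GAPDH and the ribosomal proteins have processed pseudogenes that their guides may also cut, which was not checked. IARS2, the mitochondrial isoleucyl-tRNA synthetase, rose by 0.45 ± 0.07 in p53 KO and 0.56 ± 0.08 in p53 WT (difference −0.11 ± 0.11, adjusted p = 0.766). MYC, the growth-promoting transcription factor, rose by 0.69 ± 0.06 in p53 KO and 0.46 ± 0.06 in p53 WT (difference 0.23 ± 0.08, adjusted p = 0.244). POP5, a subunit of RNase P, rose by 0.66 ± 0.06 in p53 KO and 0.36 ± 0.06 in p53 WT, a difference of 0.30 ± 0.08 (adjusted p = 0.136) that DESeq2 called (0.038).

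Genes with the lowest etoposide effect in p53 KO were KLF5, SREBF2, TMSB4Y and CCNA2. SREBF2, the transcription factor that drives cholesterol synthesis, fell by 0.35 in p53 KO (adjusted p = 0.000133), with −0.03 in p53 WT (adjusted p = 0.894). Its difference was −0.32 ± 0.09 (adjusted p = 0.177, 5 of 5 guides lower). CCNA2, a cyclin of S and G2 phase, fell by 0.31 in p53 KO (adjusted p = 0.00443), with −0.09 in p53 WT (adjusted p = 0.661) and a difference of −0.22 ± 0.10 (adjusted p = 0.457). TMSB4Y fell by 0.31 in p53 KO (adjusted p = 0.00212) and had a difference of −0.18 ± 0.10 (adjusted p = 0.539). Whether the line carries TMSB4Y, and whether its guides cut other genes, was not checked. Among the lowest in p53 WT were CDKN1A, GPX4 and MOS. MOS, an oocyte kinase, had −0.12 (adjusted p = 0.274) in p53 KO and fell by 0.28 in p53 WT (adjusted p = 0.000825).

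Growth and energy genes gave the longest lists of etoposide effects. Mitochondrial ribosome genes rose in 40 of 79 cases in p53 KO and 37 of 79 in p53 WT, with 0 lower in each. Over all genes, 2.89% rose in p53 KO and 1.66% in p53 WT. The median change of the mitochondrial ribosome genes was 0.18 in p53 KO and 0.19 in p53 WT. The median difference was 0.04, with 0 called by either tool. At an unadjusted p under 0.05, 5 were higher and 3 lower, against 5.11% and 5.09% of all genes. MRPL39 had 0.25 ± 0.07 (adjusted p = 0.175) and MRPS15 0.24 ± 0.08 (adjusted p = 0.215). Mitochondrial proteases, chaperones and tRNA synthetases rose in 13 of 28 cases in p53 KO and 11 of 28 in p53 WT, with a median difference of 0.01 and 0 called by either tool. LONP1, the matrix protease, had 0.27 ± 0.08 (adjusted p = 0.188), and AFG3L2, an inner membrane protease, 0.15 ± 0.07 (adjusted p = 0.406).

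Cytosolic ribosomal proteins rose in 28 of 79 cases in p53 KO and 6 of 79 in p53 WT, against 2.89% and 1.66% of all genes. Their median difference was 0.07, with 0 called by either tool. At an unadjusted p under 0.05, 11 were higher and 1 lower, against 5.11% and 5.09% of all genes. RPL12 summed to 27.2, 28.4 and 31.1 CPM in KO etoposide, against 21.7, 23.6 and 20.8 CPM in KO untreated, and to 23.5, 21.6 and 21.3 CPM in WT etoposide, against 23.3, 20.3 and 21.7 CPM in WT untreated. It rose in p53 KO (0.39 ± 0.08, adjusted p = 0.000179), with 0.02 ± 0.08 in p53 WT (adjusted p = 0.944) and a difference of 0.37 ± 0.11 (adjusted p = 0.175). RPL13 had a difference of 0.38 ± 0.13 (adjusted p = 0.25). RPL5 and RPL11, ribosomal proteins that can bind MDM2, had 0.09 (adjusted p = 0.802) and 0.26 (adjusted p = 0.388), and are named for that role.

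Complex I of the respiratory chain rose in 16 of 50 cases in p53 KO, with 1 lower, and in 2 of 50 in p53 WT. The shares of all genes that rose were 2.89% in p53 KO and 1.66% in p53 WT. The median difference was 0.07. None was called by edgeR and 3 by DESeq2 (NDUFB6, NDUFB8 and TMEM126B), against 10 and 99 of all 19044 genes. At an unadjusted p under 0.05, 5 were higher and 1 lower, against 5.11% and 5.09% of all genes. NDUFB6 summed to 62.9, 61.7 and 65.0 CPM in KO etoposide, against 58.0, 54.5 and 55.6 CPM in KO untreated. In p53 WT it summed to 56.2, 58.8 and 55.1 CPM with etoposide, against 65.4, 62.3 and 58.0 CPM untreated. TMEM126B, a complex I assembly factor, went the other way, with −0.26 ± 0.07 (adjusted p = 0.0948) and 6 of 6 guides lower. Complexes III and IV (29) rose in 10 cases in p53 KO and 2 in p53 WT, with a median difference of 0.05, 0 called by either tool, and UQCRC1 (0.27 ± 0.09, adjusted p = 0.205) and COX11 (0.18 ± 0.07, adjusted p = 0.347) the 2 with the smallest p. ATP synthase genes (16) rose in 6 cases in each genotype, with a median difference of 0.03 and 0 called by either tool. ATP5I had 0.29 ± 0.08 (adjusted p = 0.15, 6 of 6 guides higher) and ATP5J 0.19 ± 0.08 (adjusted p = 0.347).

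Glycolysis genes (20) rose in 9 cases in p53 KO and 6 in p53 WT, against 2.89% and 1.66% of all genes. Their median difference was 0.07, with 0 called by either tool. At an unadjusted p under 0.05, 4 were higher and 1 lower, against 5.11% and 5.09% of all genes. Elongator, KEOPS and RNase P genes (21), which modify or process tRNA, rose in 10 cases in p53 KO and 8 in p53 WT, with a median difference of 0.08. None was called by edgeR and 1, POP5, by DESeq2, against 10 and 99 of all 19044 genes. At an unadjusted p under 0.05, 3 of the 21 were higher and 1 lower. POP7 had 0.26 ± 0.08 (adjusted p = 0.215). Proteasome genes (32) had a median of 0.04, with 0 called by edgeR, 1 by DESeq2, and 3 higher and 2 lower at an unadjusted p under 0.05. PSMD3, a regulatory-particle subunit, summed to 29.4, 30.7 and 28.0 CPM in KO etoposide, against 23.8, 22.5 and 23.9 CPM in KO untreated, and to 26.0, 26.2 and 27.4 CPM in WT etoposide, against 28.3, 27.7 and 27.2 CPM in WT untreated. It rose in p53 KO (0.33 ± 0.07, adjusted p = 0.00104), with −0.06 in p53 WT (adjusted p = 0.767) and a difference of 0.39 ± 0.10 (adjusted p = 0.0948, 6 of 6 guides higher). PSMB3, of the core particle, had 0.31 ± 0.09 (adjusted p = 0.175).

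Cell cycle and transcription lists had medians close to the 0.00 of all genes. Of all genes, 5.11% were higher and 5.09% lower at an unadjusted p under 0.05. G1 cyclins, their kinases and RB1 (22) had a median of 0.00, with 1 higher at an unadjusted p under 0.05, E2F1 (0.19 ± 0.08, adjusted p = 0.34), and CCND2 at 0.13 ± 0.07 (adjusted p = 0.53). G2 and M phase genes (22) had a median of −0.02, with 2 lower at an unadjusted p under 0.05, CDC20 (−0.27 ± 0.11, adjusted p = 0.337) and CCNA2. The MYC network (14) had a median of −0.01, with 2 higher, MYC and its antagonist MXI1 (0.16 ± 0.07, adjusted p = 0.403). Mediator (33) had a median of −0.02, with 2 higher and 2 lower, MED22 (0.23 ± 0.10, adjusted p = 0.363) and MED13 (0.15 ± 0.06, adjusted p = 0.365) having the smallest p. Cholesterol synthesis and SREBP genes (21) had a median of −0.02, with 2 lower, SREBF2 among them. None of these 5 lists had a member called by edgeR or DESeq2. The 376 olfactory receptor genes, which are silent in most tissues, had a median of −0.02, with 0 called by edgeR. DESeq2 called 2 of them lower (OR2J2 and OR5D18), against 57 of all 19044 genes. At an unadjusted p under 0.05, 17 of the 376 were higher and 34 lower.

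**Figure D5:**
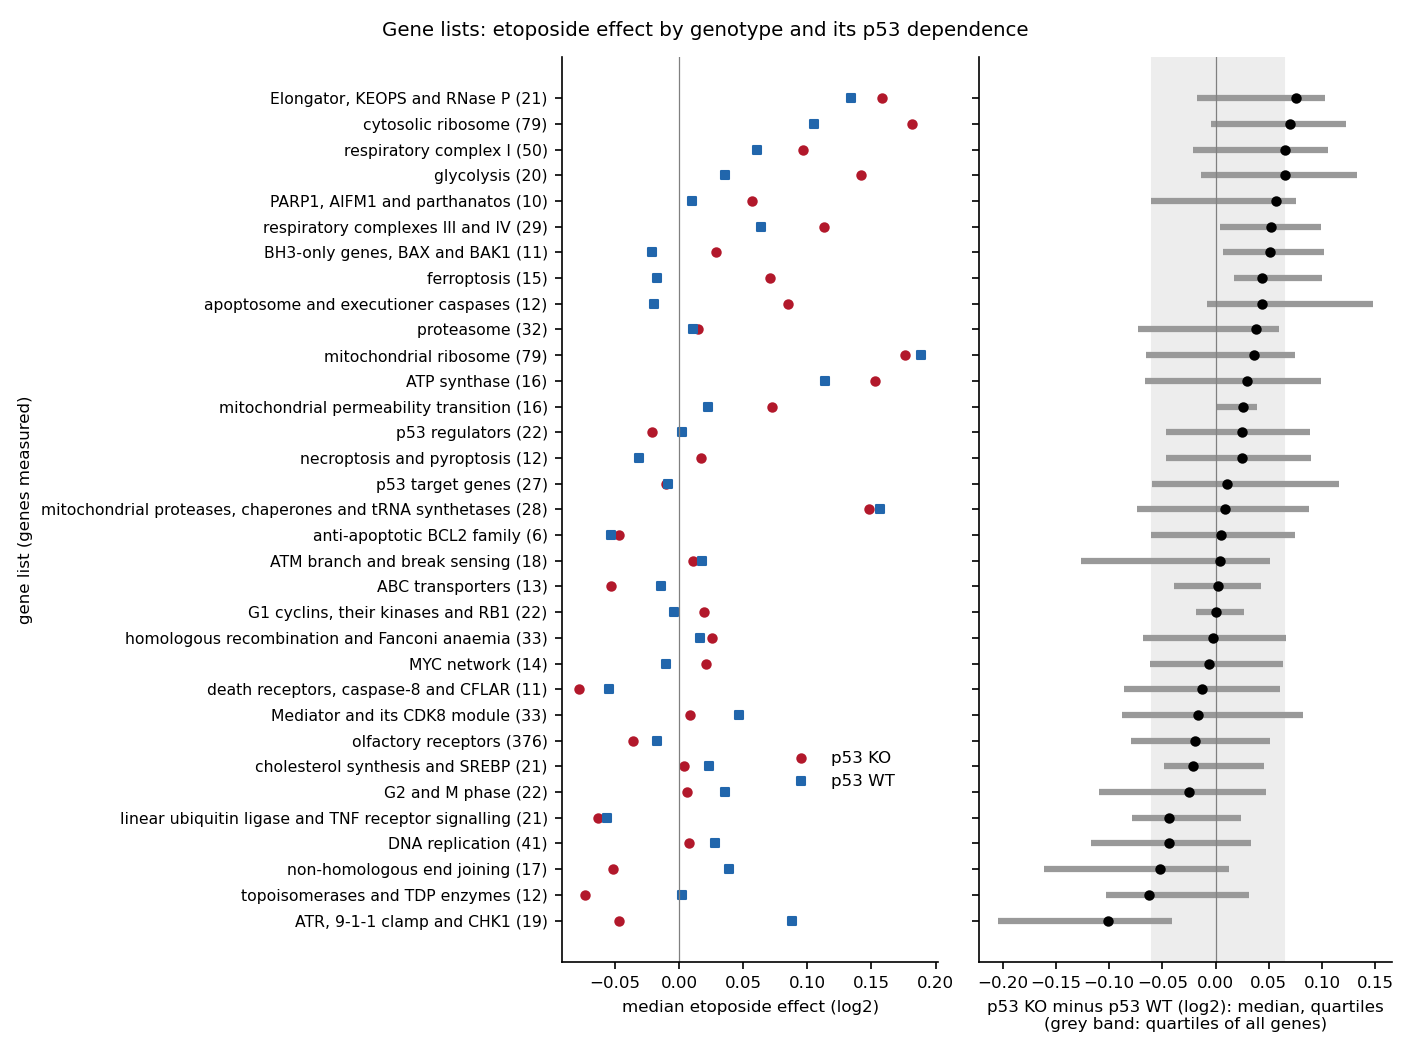
Gene lists (rows, with the number of genes measured) by their median etoposide effect in p53 KO (red circles) and p53 WT (blue squares) on the left, and by the median and quartiles of the difference between them on the right, all in log2. The ATR, 9-1-1 and CHK1 list lies lowest at −0.10, and the grey band marks the quartiles of all 19044 genes.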

How the data were processed

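The authors deposited raw counts, 1 per guide and library, and per the submitters' processing notes Bowtie2 and DESeq2 were used. Their versions and the guide library's name were not given in the sources used here. The RNA-seq of the series was not used. The least abundant guide in the table averaged 62.6 counts over the 18 screen libraries, so rarer guides may be missing from it.

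Counts were summed over the guides of each gene (3 or more guides, 13928 genes with 6), scaled by TMM factors from the guide counts, and fitted with edgeR 4.0.16 (quasi-likelihood, R 4.3.3) over all 18 libraries as 6 groups, with 12 residual degrees of freedom. The filter on low counts removed no gene. Tests were two-sided, with Benjamini-Hochberg adjustment over 19044 genes. Standard errors were derived from the F statistic. The test was also run on simulated gene counts with known changes in a single group. These had the same spread for every gene and no single-guide outliers, so that run does not bear on cases such as CASP6. Alternatives used DESeq2 1.42.0 and limma 3.58.1.

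Named genes include MDM2, MDM4, CDKN1A and TOP2A. Among genes with at least 2 of every 3 guides agreeing, the 10 with the smallest interaction p in each direction are named. By the same guide condition, so are the 4 highest and 4 lowest called etoposide effects of each genotype. From each of 32 lists, the 2 with the lowest p are named. Other list members are named for their roles or, where said, for their values. The genes, lists and rule were chosen with earlier results of these data known. Lists are described by counts and medians without a test. Some genes and guides that the rule selects are not reported here. DNA2 and SLC25A6 were listed but had no tested symbol.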

Additional observations from a re-analysis of the deposited data

Results flagged for a closer look

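The etoposide effect differed between the genotypes, by the test of the difference, for 10 genes: GPX4 (0.52), ABT1 (0.37), CAST (0.37), GFRA1 (0.35), SLC25A52 (0.33), HSPA4 (−0.35), KLF5 (−0.37), SMDT1 (−0.47), HUS1 (−0.55) and RAD9A (−0.58), all as p53 KO minus p53 WT on the log2 scale. It also differed for the single guide HGLibB_21658 (−1.43) against HMGA2, whose summed gene was not called.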

How the results depend on the processing

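The number of genes called for the interaction, 10 as reported, was 19 with scaling to the non-targeting guides, 99 with DESeq2 (all 10 among them), 5 with the guides' mean log2 CPM in limma (4 shared), 5 with only the 12 libraries compared, 4 without guides under a mean of 200 counts, and 1 with T0 as the baseline (0 shared). Leaving out 1 library gave 5 to 17. For etoposide in p53 KO, 817 became 527 with library quality weights, an alternative added after seeing the data, and 513 to 880 without 1 library. For p53 WT, 386 became 991 with scaling to the non-targeting guides and 240 to 436 without 1 library. The 3 called guides became 1 to 5. Same-letter correlations of deviations ran from −0.05 to 0.10 over 18 pairs (median 0.01), against −0.07 to 0.10 between letters (median −0.01). By these correlations, 8 of 12 libraries went best with their own letter. Whether the replicate letters pair the libraries was not tested. With the letter as a replicate block, 15 genes (all 10 among them), 851 genes in p53 KO, 409 in p53 WT and 5 guides were called. The added genes included DEFB103B (adjusted p = 0.045), KLF10 (0.045), NDUFB6 (0.046) and ATR (0.0491), which lay just outside the threshold. Of 1773 values for the 85 named genes, 4 changed sign: MDM4 with limma (0.0021) and without KO untreated C (0.0064, in a range of −0.11 to 0.0064 over the libraries left out), BCL2 with limma (−0.0225) and CASP6 without KO etoposide B (−0.31, in a range of −0.31 to 4.66). The cause of these changes was not tested. In the limma alternative each guide counts equally, and the one without low guides tested 18058 genes. The median SE of 0.08 limits which differences could be called.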
